A study of Mus musculus with 12 samples.

Results

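The 10 genes described here encode the subunits of the transcription factor NF-kB and the proteins that hold it back. They were taken from the count table by symbol. The subunits are Nfkb1, Nfkb2, Rel, Rela and Relb, and the inhibitors are Nfkbia, Nfkbib, Nfkbie, Bcl3 and Tnfaip3. All 10 were found among 24421 symbols, and all 10 were among the 12981 genes that passed the filter on low counts and were tested. Messenger RNA came from cells of injured mouse tibialis anterior, a leg muscle, on day 5 after notexin, a snake venom toxin that destroys muscle fibres. The cells were sorted as PI-, CD45+, CD11B+ and LY6G/SIGLECF-, and the labels call them macrophages. The 4 groups, with 3 libraries each, were Ifngr1 null/null mice given a TNF-neutralizing antibody, null/null mice given an isotype antibody, wt/null mice given the TNF-neutralizing antibody and wt/null mice given the isotype antibody. The antibodies were injected into the peritoneum daily after the injury. Every mouse therefore carried at least 1 null allele of Ifngr1, which encodes the ligand-binding chain of the interferon gamma receptor, and no group carried 2 wild-type alleles. The labels give no age, do not say what the null allele removes and do not say whether each library came from a separate mouse, so the p-values below measure the spread between libraries, which may be technical.

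NF-kB is a dimer of Rel-family proteins that waits in the cytoplasm, bound by an IkB inhibitor, until a signal such as TNF or a microbial product activates the IkB kinase. In the canonical branch the kinase marks IkB for destruction and dimers of RelA or c-Rel with p50 enter the nucleus. In the noncanonical branch p100, the product of Nfkb2, is cut to p52, which works with RelB. Macrophages use both branches to switch on cytokine and survival genes, and several of the genes switched on encode inhibitors, which closes a negative feedback loop.

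Libraries held 23.2 to 29.9 M counts (M, mega), of which the members made up 0.108% to 0.176%, and each member had at least 435 counts in every library. The unit of level is CPM, the counts of a gene in each M counts of a library, after scaling by TMM, which corrects for differences in RNA composition. Ptprc, which encodes CD45, ranged from 718.4 to 1242 CPM over the 12 libraries, and Itgam, which encodes CD11B, from 673.8 to 1047 CPM. The macrophage genes Adgre1 and Csf1r ranged from 1368 to 1783 CPM and from 3157 to 4061 CPM, so the labelled cell type had its defining transcripts in every library. Ifngr1 lay between 83.3 and 118.7 CPM in the 6 null/null libraries, against 226.2 to 250.5 CPM in the 6 wt/null libraries. Its log2 fold change averaged over antibody was -1.36 ± 0.08 (SE, adjusted p = 1.43e-05, edgeR's quasi-likelihood test with Benjamini-Hochberg adjustment). On the first principal component, which held 34.4% of the variance, wt/null anti-TNF replicate 2 (54.2) and null/null anti-TNF replicate 1 (45.9) stood apart from the other 10 libraries (-20.8 to -3.47). Both came from the anti-TNF arm and both have titles that start with 40C, a start shared by 1 isotype library of each genotype, neither of which stood apart. The labels do not say what the title's number and letter mean. Many estimates are given with and without these 2 libraries. Their summed level over 7 osteoclast-type markers was 523 and 621 CPM, against 1130 to 3960 CPM in the other libraries. Over 8 neutrophil markers it was 198 and 206 CPM against 114 to 153, over 4 endothelial markers 45.7 and 40.9 CPM against 16.6 to 32.6, and over 9 muscle and fibroblast markers 387 and 300 CPM against 576 to 1300 CPM. No gene of these 4 lists was at 0 in all 12 libraries. For dendritic cell markers the 2 libraries lay within the range of the others (1010 and 1070 against 930 to 1430 CPM). The same held for T and NK cell markers (173 and 128 against 98.3 to 202). It also held for eosinophil and mast cell markers (6.43 and 7.23 against 6.07 to 14). For macrophage and monocyte markers only null/null anti-TNF replicate 1 lay outside it (23800 against 24600 to 29700). For B cell markers only wt/null anti-TNF replicate 2 did (20.3 against 10 to 19.6). These are bulk libraries of a sorted population, in which fewer cells of a type and less RNA per cell cannot be told apart.

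Compared per length, as CPM per kb of the principal transcript, the inhibitor Nfkbia was the most abundant member and the subunit Rel the least. Nfkbia averaged 179.4 CPM per kb over the 12 libraries (131.5 to 285.3), and its lowest library lay above the highest library of any other member. Tnfaip3 followed at 56.9 (38.2 to 114.3), Nfkb1 at 55.6 (51.0 to 64.2), Nfkb2 at 51.6 (44.9 to 59.9) and Rela at 41.1 (36.7 to 45.0), and the ranges of neighbours in this order overlapped. Nfkbie at 33.8, Bcl3 at 32.7 and Relb at 32.3 CPM per kb were level with each other, Nfkbib lay below them at 19.7 (15.9 to 27.4), and Rel stood at the bottom at 3.79 (2.49 to 6.25). With the union of all annotated exons as the length, 12.061 kb for Nfkb1 in place of 4.117 kb, the order between the ends changed: Rela moved to rank 2, Nfkb2 to 3, Tnfaip3 to 4 and Nfkb1 to 7, and Nfkbib (18.72) came above Relb (18.39 CPM per kb). Nfkbia and Rel kept the first and last places. The members also differed in how much they varied between libraries. The coefficient of variation over the 12 libraries was 6.44% for Rela, 6.62% for Nfkb1 and 8.55% for Nfkb2, and 15.7% to 38.0% for the other 7, with Tnfaip3, Rel (31.2%) and Nfkbia (24.4%) the most variable.

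Promoter windows of 8 members, all except Nfkb1 and Relb, were found in the RefSeq table (GRCm38.p6), and 5 of them held the kappa B consensus, the DNA motif that NF-kB dimers bind, within 250 bases upstream of an annotated start. Counted by window, since a gene can have several starts, 7 of the members' 11 windows held it on either strand, against 7.25% of all 32851 promoter windows of that length. A match is a description of the letters, not evidence of binding. Sequences of Nfkb2, Tnfaip3, Nfkbia and Nfkbie are shown because the values below turn on these genes. For Nfkbia and Nfkbie the whole window of 250 bases is given. For Nfkb2 and Tnfaip3 only 30 bases around the matches are given, and these matches lie within the annotated span of the gene. Capitals mark the match, and each sequence is read along the strand of its gene.

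Nfkb2, chr19:46304688-46304717, plus strand: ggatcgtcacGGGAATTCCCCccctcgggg
Nfkb2, chr19:46304707-46304736, plus strand: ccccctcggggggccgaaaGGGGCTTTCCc
Nfkb2, chr19:46305449-46305478, plus strand: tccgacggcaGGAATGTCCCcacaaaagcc
Nfkb2, chr19:46305695-46305724, plus strand: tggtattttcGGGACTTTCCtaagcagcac
Tnfaip3, chr10:19015516-19015545, minus strand: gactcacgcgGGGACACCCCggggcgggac
Tnfaip3, chr10:19015411-19015440, minus strand: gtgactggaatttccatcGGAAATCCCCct
Nfkbia, chr12:55492648-55492897, minus strand: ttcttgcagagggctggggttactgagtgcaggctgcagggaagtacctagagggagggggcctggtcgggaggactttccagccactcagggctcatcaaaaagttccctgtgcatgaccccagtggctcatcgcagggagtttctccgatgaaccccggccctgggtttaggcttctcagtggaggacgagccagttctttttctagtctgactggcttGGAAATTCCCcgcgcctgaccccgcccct
Nfkbie, chr17:45555450-45555699, plus strand: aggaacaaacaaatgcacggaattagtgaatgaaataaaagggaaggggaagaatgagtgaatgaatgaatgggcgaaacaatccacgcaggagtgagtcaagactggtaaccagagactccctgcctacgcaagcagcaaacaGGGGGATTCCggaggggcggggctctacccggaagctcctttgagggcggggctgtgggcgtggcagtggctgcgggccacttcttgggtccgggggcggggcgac

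Nfkb2 had matches upstream of each of 3 annotated starts, the nearest of them 30 and 2 bases upstream of one start. The match of Nfkbia lay 20 bases upstream of its start and that of Nfkbie 97 bases upstream. Rel held its match at chr11:23771052-23771061, 83 bases upstream. The windows of Rela, Nfkbib and Bcl3 did not hold these letters, which says nothing about NF-kB at those genes.

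Among the subunits, Nfkb2 was the member that followed genotype most evenly. Nfkb2 (chr19:46304320-46312385, plus strand, GRCm38) encodes p100, both an inhibitor of RelB and the precursor of p52. It had 162.3, 166.8 and 163.7 CPM in null/null anti-TNF and 175.5, 188.2 and 180.9 CPM in null/null isotype libraries, against 141.1, 154.2 and 158.3 CPM in wt/null anti-TNF and 146.8, 153.6 and 155.1 CPM in wt/null isotype libraries. All 6 null/null libraries thus lay above all 6 wt/null libraries, the lowest at 162.3 against the highest at 158.3 CPM. Of the 12981 genes tested, 11 (0.0847%) were separated in this direction. Averaged over antibody the log2 fold change was 0.19 ± 0.05 (SE, 95% interval 0.07 to 0.30), a level 1.14 times as high in null/null. The unadjusted p of 0.00347 ranked 14th among all genes, and the adjusted p was 1 in edgeR's quasi-likelihood test with Benjamini-Hochberg adjustment, so the difference did not pass. Across the other settings tried the adjusted p ranged from 0.282 to 1 and the log2 fold change from 0.17 to 0.21. Under isotype antibody the log2 fold change was 0.26 ± 0.07 (95% interval 0.10 to 0.42, unadjusted p = 0.00436, adjusted p = 1). Under anti-TNF it was 0.12 ± 0.07 (95% interval -0.04 to 0.28).

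Nfkb2 was also the member whose null/null groups were separated by antibody. Of all genes tested 8.41% were separated there in either direction, so 1 of 10 members is near that share. The 3 null/null anti-TNF libraries (162.3 to 166.8 CPM) lay below the 3 null/null isotype libraries (175.5 to 188.2 CPM), with a log2 fold change of -0.14 ± 0.07 (95% interval -0.31 to 0.02, adjusted p = 0.947). In wt/null libraries the antibody groups overlapped and the estimate was -0.01 ± 0.07. Averaged over genotype the antibody estimate for Nfkb2 was -0.08 ± 0.05 (95% interval -0.19 to 0.04, adjusted p = 0.692), and the interaction of genotype and antibody was -0.14 ± 0.10 (95% interval -0.37 to 0.09, adjusted p = 1). The 2 libraries that stand apart were not extreme for this gene, at 154.2 and 162.3 CPM. Without them the genotype estimate was 0.20 ± 0.06 (adjusted p = 1). Each group also holds 1 library whose title starts with 46, and that library had the highest Nfkb2 value in 3 of the 4 groups. In the 8 libraries whose titles start with 40 the genotype estimate for Nfkb2 was 0.20 (unadjusted p = 0.0283, adjusted p = 1). Exons of Nfkb2 overlap those of Psd and a noncoding gene on the opposite strand, and whether the counting used strand is not given in the sources used here.

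The canonical subunits Nfkb1 and Rela were the steadiest members. Nfkb1 (chr3:135584655-135691547, minus strand), which encodes p105 and its product p50, had 228.6, 210.7 and 210.1 CPM in null/null anti-TNF and 223.1, 246.5 and 231.8 CPM in null/null isotype libraries. The wt/null libraries held 223.7, 264.1 and 224.4 CPM under anti-TNF and 237.8, 226.8 and 218.0 CPM under isotype. The groups overlapped in every comparison, and the highest library, wt/null anti-TNF replicate 2, was 1.26 times the lowest. The log2 fold change of Nfkb1 was -0.05 ± 0.06 for genotype averaged over antibody (95% interval -0.18 to 0.09) and -0.02 ± 0.06 for antibody averaged over genotype (-0.16 to 0.11), with an interaction of -0.17 ± 0.13 (-0.45 to 0.10). The Nfkb1 estimates without the 2 libraries that stand apart were -0.03 ± 0.06 for genotype and -0.09 ± 0.06 for antibody. Rela (chr19:5637483-5648130, plus strand), which encodes p65, the transactivating partner of p50, had 108.8, 118.5 and 106.0 CPM in null/null anti-TNF and 112.4, 122.1 and 121.7 CPM in null/null isotype libraries. In wt/null it had 108.3, 115.2 and 108.7 CPM under anti-TNF and 99.7, 115.6 and 102.7 CPM under isotype. The Rela groups overlapped too, and the whole range spanned 1.22-fold. Its estimates were 0.08 ± 0.06 for genotype (95% interval -0.04 to 0.21), -0.02 ± 0.06 for antibody (-0.14 to 0.11) and -0.16 ± 0.12 for the interaction (-0.41 to 0.10). For genotype averaged over antibody and antibody averaged over genotype, the intervals of these 2 genes left out changes of more than 0.21 on the log2 scale. Intervals of single comparisons reached further, as for genotype in Rela under isotype (-0.02 to 0.34) and in Nfkb1 under anti-TNF (-0.33 to 0.06).

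Rel and Relb varied more between the libraries of one group, and most in the anti-TNF arms. Rel (chr11:23736847-23770970, minus strand), which encodes c-Rel, had 42.4, 28.97 and 26.0 CPM in null/null anti-TNF and 22.8, 33.9 and 22.9 CPM in null/null isotype libraries. The wt/null libraries held 26.8, 46.6 and 18.8 CPM under anti-TNF and 21.9, 18.6 and 29.7 CPM under isotype. The highest 2 values were those of the 2 libraries that stand apart, and all groups overlapped. Rel estimates were 0.13 ± 0.23 for genotype (95% interval -0.38 to 0.64), 0.34 ± 0.23 for antibody (-0.17 to 0.85) and -0.10 ± 0.46 for the interaction (-1.13 to 0.92). Without those libraries the Rel estimates were 0.22 ± 0.17 for genotype, 0.01 ± 0.17 for antibody and 0.09 ± 0.33 for the interaction. Relb (chr7:19606217-19629438, minus strand), the partner of p52 in the noncanonical branch, had 87.4, 74.7 and 61.5 CPM in null/null anti-TNF and 63.7, 79.5 and 76.5 CPM in null/null isotype libraries. It had 61.0, 94.3 and 64.0 CPM in wt/null anti-TNF and 62.4, 71.3 and 61.1 CPM in wt/null isotype libraries, so that groups overlapped and the same 2 libraries again stood highest. Relb estimates were 0.10 ± 0.12 for genotype (95% interval -0.16 to 0.36), 0.10 ± 0.12 for antibody (-0.16 to 0.36) and -0.15 ± 0.24 for the interaction (-0.67 to 0.38). For Relb the antibody estimate was -0.08 ± 0.09 and the interaction -0.05 ± 0.17 without the 2 libraries.

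**Figure D1:**
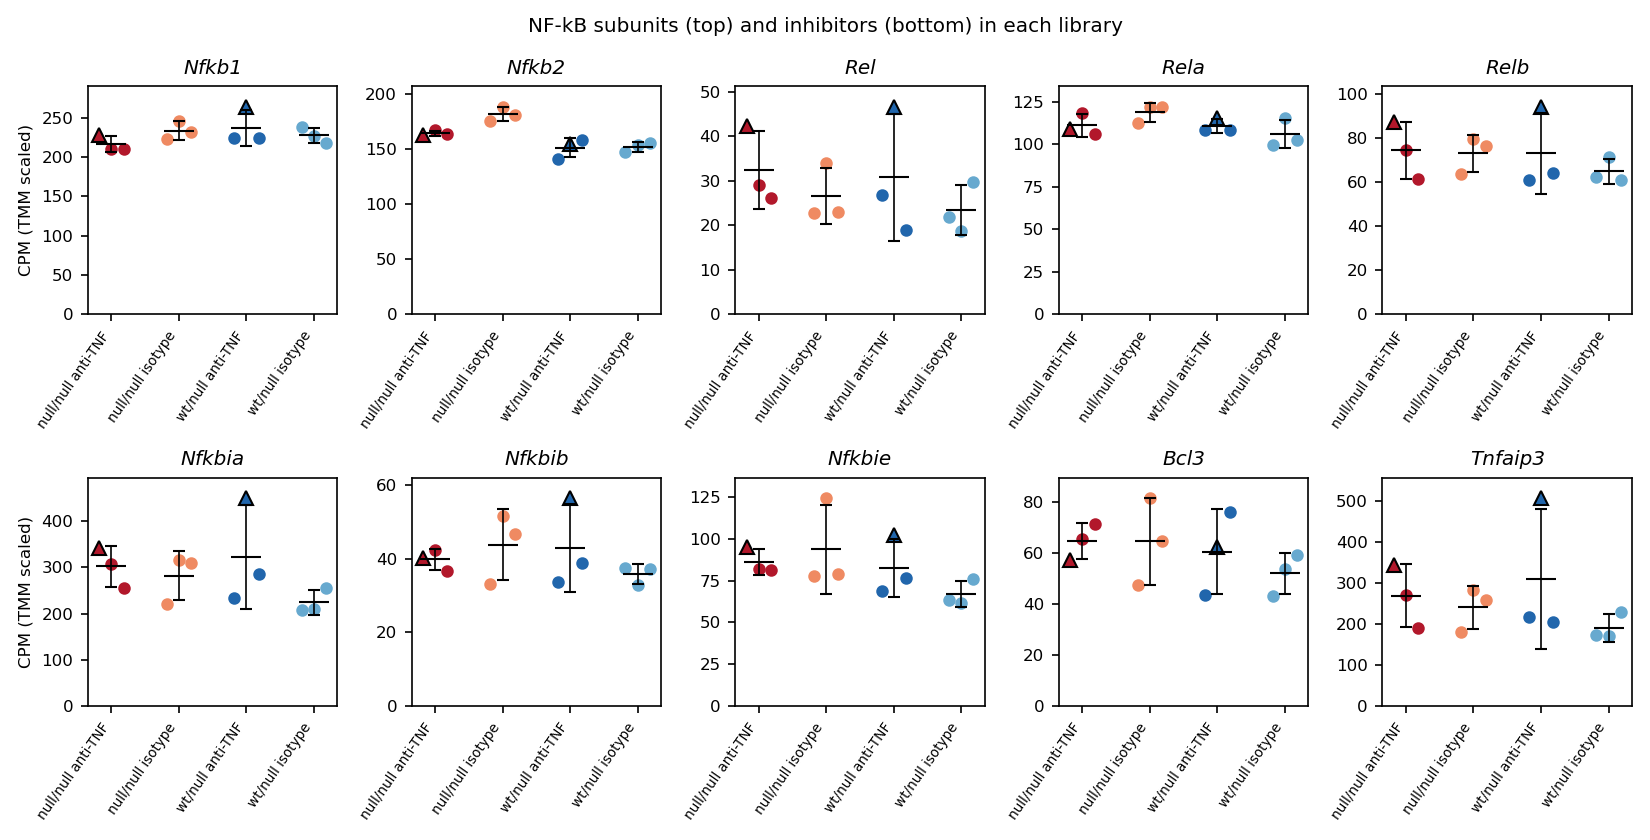
TMM-scaled CPM of each member (vertical axes, starting at 0) in the 3 libraries of each group, with horizontal marks at group means and bars of 1 SD. Triangles with black edges are the 2 libraries that stand apart; Nfkb2 in all 6 null/null libraries (162.3 CPM or more) lies above all 6 wt/null libraries (158.3 CPM or less), whereas Tnfaip3 and Nfkbia are highest in wt/null anti-TNF replicate 2.

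The inhibitors were more variable than most subunits, and Nfkbia and Tnfaip3, both feedback inhibitors, peaked in the same libraries. Nfkbia (chr12:55489410-55492647, minus strand) encodes IkB-alpha, the inhibitor that is degraded and rapidly made again when the canonical branch is active. It had 343.2, 308.5 and 255.9 CPM in null/null anti-TNF and 221.5, 315.1 and 309.7 CPM in null/null isotype libraries. In wt/null it had 234.6, 450.2 and 284.8 CPM under anti-TNF and 207.5, 210.0 and 256.1 CPM under isotype. The top 2 values were those of the libraries that stand apart, and the groups overlapped. In wt/null mice the log2 fold change of Nfkbia for antibody was 0.53 ± 0.22 (95% interval 0.04 to 1.01, unadjusted p = 0.0375), which did not pass (adjusted p = 0.895). Without wt/null anti-TNF replicate 2 alone that estimate was 0.21 (unadjusted p = 0.249). In null/null mice the estimate was 0.10 ± 0.22. Averaged over genotype it was 0.31 ± 0.16 (95% interval -0.03 to 0.66, adjusted p = 0.66), and 0.11 ± 0.12 without the 2 libraries. Nfkbia estimates were 0.12 ± 0.16 for genotype averaged over antibody (95% interval -0.23 to 0.46) and -0.42 ± 0.32 for the interaction (-1.11 to 0.27). They were 0.22 ± 0.12 for genotype and -0.21 ± 0.23 for the interaction without the 2 libraries.

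Tnfaip3 (chr10:19000910-19015657, minus strand) encodes A20, a ubiquitin-editing enzyme that shuts off signalling upstream of the IkB kinase, so it restrains NF-kB without binding it. It had 343.4, 270.9 and 189.7 CPM in null/null anti-TNF and 180.4, 281.1 and 257.6 CPM in null/null isotype libraries. In wt/null it had 216.8, 505.6 and 203.4 CPM under anti-TNF and 172.0, 168.7 and 227.7 CPM under isotype. The spread was the widest of all members, with a highest library 3 times the lowest, and the groups overlapped in every comparison. Averaged over genotype the antibody estimate for Tnfaip3 was 0.43 ± 0.25 (95% interval -0.12 to 0.98, adjusted p = 0.665), and 0.05 ± 0.15 without the 2 libraries that stand apart. The Tnfaip3 estimate for genotype averaged over antibody was 0.07 ± 0.25 (95% interval -0.48 to 0.62), and its interaction was -0.54 ± 0.50 (-1.64 to 0.56). These were 0.24 ± 0.15 for genotype and -0.21 ± 0.30 for the interaction without the 2 libraries. Tnfaip3 lies 576.3 kb from Ifngr1, the gene that carries the null allele, which spans chr10:19591949-19610229. The genotype estimate for Tnfaip3 was 0.34 under isotype (unadjusted p = 0.357) and -0.20 under anti-TNF (unadjusted p = 0.574), and neither passed. The estimate under anti-TNF was 0.13 without the 2 libraries.

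Nfkbib and Nfkbie encode IkB-beta and IkB-epsilon, the other 2 classical IkB proteins. Nfkbie (chr17:45555703-45563169, plus strand) had 95.4, 81.9 and 81.1 CPM in null/null anti-TNF and 77.7, 124.4 and 79.2 CPM in null/null isotype libraries. The wt/null libraries held 68.7, 102.2 and 76.6 CPM under anti-TNF and 63.5, 61.5 and 75.7 CPM under isotype. Under isotype the null/null libraries all lay above the wt/null libraries, while under anti-TNF the genotypes overlapped. The isotype estimate for Nfkbie was 0.49 ± 0.19 (95% interval 0.07 to 0.90, unadjusted p = 0.0259, adjusted p = 1). It was 0.23 (unadjusted p = 0.173) without null/null isotype replicate 2, the library with 124.4 CPM. Without wt/null isotype replicate 1 or 2 it was 0.45 and 0.42 (unadjusted p = 0.0711 and 0.0818). Nfkbie estimates were 0.27 ± 0.13 for genotype averaged over antibody (95% interval -0.02 to 0.57), 0.09 ± 0.13 for antibody averaged over genotype (-0.20 to 0.38) and -0.42 ± 0.27 for the interaction (-1.01 to 0.16). The antibody estimate for Nfkbie was -0.04 ± 0.13 without the 2 libraries. Its genotype average was then 0.33 ± 0.13 (95% interval 0.04 to 0.61, unadjusted p = 0.0307, quasi-likelihood test), which did not pass adjustment. The interaction for Nfkbie was then -0.32 ± 0.26.

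Nfkbib (chr7:28758251-28767512, minus strand) had 40.3, 42.4 and 36.8 CPM in null/null anti-TNF and 33.1, 51.6 and 46.7 CPM in null/null isotype libraries. It had 33.6, 56.5 and 38.9 CPM in wt/null anti-TNF and 37.5, 32.8 and 37.2 CPM in wt/null isotype libraries, and all groups overlapped. Its estimates were 0.09 ± 0.13 for genotype (95% interval -0.20 to 0.38), 0.06 ± 0.13 for antibody (-0.23 to 0.35) and -0.40 ± 0.27 for the interaction (-0.98 to 0.19). Leaving out the 2 libraries that stand apart, the Nfkbib estimates were 0.21 ± 0.12 for genotype, -0.07 ± 0.12 for antibody and -0.16 ± 0.23 for the interaction. Bcl3 (chr7:19808462-19822770, minus strand) is an atypical, nuclear IkB that binds p50 and p52 dimers on DNA and can raise or lower transcription, so its place among the inhibitors follows its family. It had 57.4, 65.5 and 71.4 CPM in null/null anti-TNF and 47.4, 81.5 and 64.7 CPM in null/null isotype libraries, and 43.3, 62.2 and 76.3 CPM in wt/null anti-TNF and 43.1, 53.5 and 59.3 CPM in wt/null isotype libraries. The Bcl3 groups overlapped as well. In each of the 4 groups the highest Bcl3 value was that of the library whose title starts with 46. These libraries averaged 72.1 CPM, against 54.6 CPM in the libraries whose titles start with 40, and the labels do not say what the number means. Bcl3 estimates were 0.20 ± 0.16 for genotype (95% interval -0.14 to 0.55), 0.11 ± 0.16 for antibody (-0.23 to 0.46) and -0.22 ± 0.32 for the interaction (-0.91 to 0.48). The Bcl3 interaction was -0.12 ± 0.38 without the 2 libraries. Exons of Nfkbib and Bcl3 also overlap genes on the opposite strand, as for Nfkb2.

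Across the members, 0 of 10 passed an adjusted p below 0.05 in any of the 8 comparisons, in edgeR, DESeq2 or limma voom. The background was equally sparse. Of all genes tested, 0.0077% (1 gene, Ifngr1) were called for genotype under isotype, under anti-TNF and averaged over antibody, and 0.0077% (the same gene) for null/null anti-TNF against wt/null isotype. For antibody in wt/null, in null/null and averaged over genotype, and for the interaction, 0% were called in edgeR. At an unadjusted p below 0.05 there were 581 genes for antibody in wt/null, 452 in null/null, 949 averaged over genotype and 196 for the interaction. DESeq2 called 14 genes for antibody averaged over genotype, none of them members, and 0 in the other 3 of these comparisons. For antibody averaged over genotype it gave no adjusted p for Rel, Rela, Relb, Nfkbib, Nfkbie and Bcl3. Those members could therefore not be called there by DESeq2. In edgeR the adjusted p of the members was 1 for genotype and for the interaction, and 0.66 to 0.937 for antibody averaged over genotype. At an unadjusted p below 0.05 there were 2 members for genotype under isotype (Nfkb2 and Nfkbie), 0 under anti-TNF and 1 averaged over antibody (Nfkb2). For antibody there was 1 in wt/null (Nfkbia), 0 in null/null and 0 averaged over genotype. There were 0 for the interaction and 0 for null/null anti-TNF against wt/null isotype. Among all genes tested the share below that p was 1.80% for genotype under isotype, 1.98% under anti-TNF and 2.46% averaged over antibody. It was 4.48% for antibody in wt/null, 3.48% in null/null and 7.31% averaged over genotype, 1.51% for the interaction and 2.13% for null/null anti-TNF against wt/null isotype. Without the 2 libraries that stand apart, 3 members were below that p for genotype under isotype (Nfkb2, Nfkbie and Nfkbia). There were then 2 averaged over antibody (Nfkb2 and Nfkbie) and 0 in each other comparison. The share over all genes was not counted for that fit, in which 0 members were called. The shares above belong to the fit of 12 libraries, so the counts without the 2 libraries have no background beside them.

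Libraries of the compared groups did not overlap for 2 members for genotype under isotype (Nfkb2 and Nfkbie, higher in null/null; background 7.96% of all genes in either direction) and 1 for genotype under anti-TNF (Nfkb2, higher in null/null; 5.15%). The count was 0 for antibody in wt/null (10.2%) and 1 for antibody in null/null (Nfkb2, lower under anti-TNF; 8.41%). It was 2 for null/null anti-TNF against wt/null isotype (Nfkb2 and Nfkbie; 7.9%). For 10 members each of these shares comes to about 1 gene or fewer, and the comparisons share libraries.

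The direction of the estimates was more uniform than their size. Under isotype all 10 members had positive genotype estimates, from 0.04 for Nfkb1 to 0.49 for Nfkbie, with a median of 0.27 on the log2 scale beside 0.00 for all genes tested, of which 50.7% were positive. Under anti-TNF 6 were positive and 4 negative, with a median of 0.02. For antibody in wt/null 9 were positive and 1 negative with a median of 0.24, against 5 and 5 with a median of -0.05 in null/null. For null/null anti-TNF against wt/null isotype 9 were positive, with a median of 0.26. The interaction estimates of all 10 were negative, from -0.54 for Tnfaip3 to -0.10 for Rel, with unadjusted p between 0.141 and 0.831. Genotype under isotype, antibody in wt/null, null/null anti-TNF against wt/null isotype and the interaction all use the wt/null isotype libraries, which had the lowest group mean of 8 of the 10 members, so these 4 do not support each other. Many of the members also move together between libraries, so a shared sign counts for less than it would for independent genes. Without the 2 libraries that stand apart, 10 genotype estimates under isotype were still positive (median 0.27), 9 under anti-TNF were (median 0.13), and 9 of the 10 interaction estimates were negative. Antibody estimates were then 6 positive and 4 negative in wt/null (median 0.02).

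**Figure D2:**
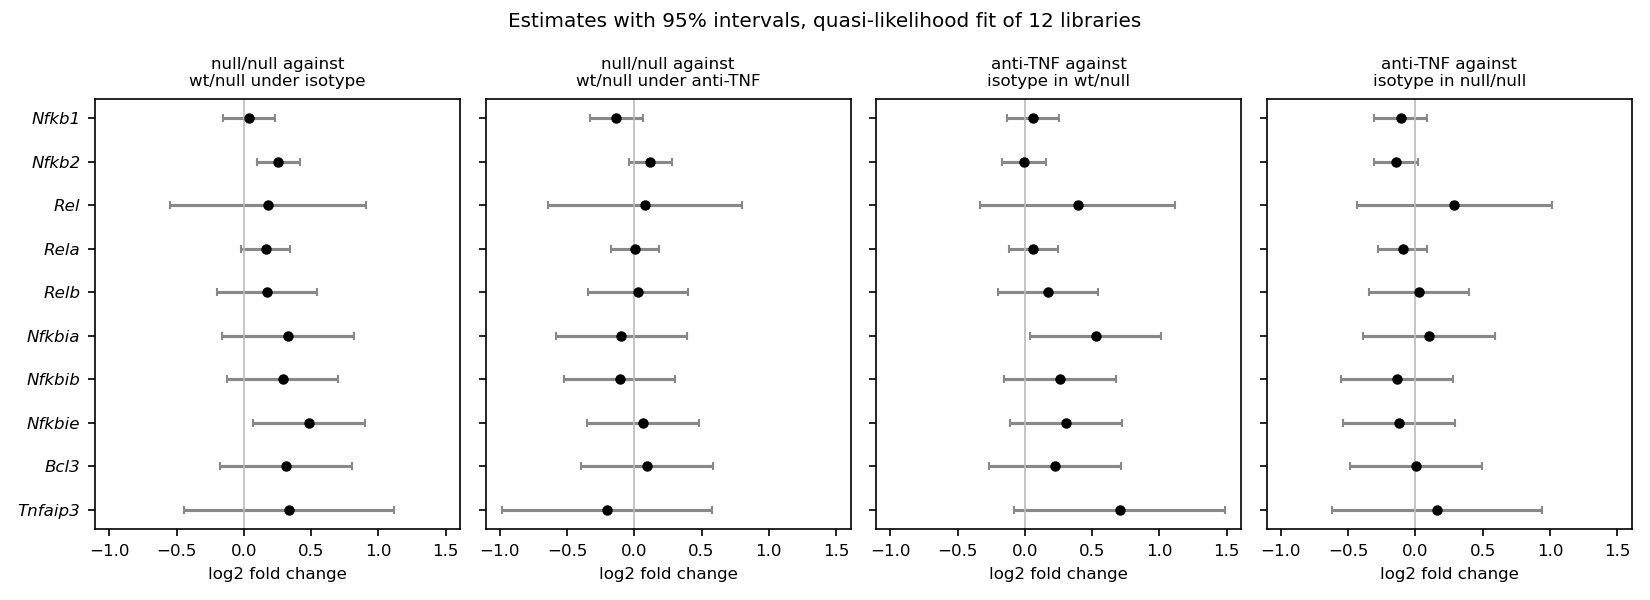
Log2 fold change of each member (points) with its 95% interval (bars) in the 4 single comparisons, from the quasi-likelihood fit of all 12 libraries; the grey line marks 0. Genotype estimates under isotype all lie right of 0 and only Nfkb2 (0.10 to 0.42) and Nfkbie (0.07 to 0.90) have intervals that leave 0 out, as does Nfkbia (0.04 to 1.01) for antibody in wt/null.

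The rest of the pathway gave no call either. Lists of other IkB-family genes (5 of 5 tested), IkB kinases and their regulators (14 of 14), receptor-proximal adaptors (18 of 18), deubiquitinases and other brakes (14 of 14), ligands and receptors (18 of 21), canonical targets (40 of 40) and noncanonical targets (8 of 11) had 0 genes called higher and 0 called lower in all 8 comparisons in edgeR. DESeq2 and limma voom also called 0 of them, and 0 to 7 genes of a list had an unadjusted p below 0.05. For antibody averaged over genotype DESeq2 gave no adjusted p for Tab3, Map3k8 and Ltb, so it could not call them. In the canonical target list 34 of 40 genotype estimates were positive under isotype, with a median of 0.18. Under anti-TNF 14 genotype estimates were positive and 26 negative, with a median of -0.05. For antibody in wt/null 30 of 40 were positive, with a median of 0.40. There 7 of the 40 had an unadjusted p below 0.05, against 4.48% of all genes tested. Of the interaction estimates 8 were positive and 32 negative. Genotype under isotype, antibody in wt/null and the interaction all use the wt/null isotype libraries, so they do not support each other. Without the 2 libraries that stand apart the count under isotype was 34 of 40 again (median 0.18), and that for antibody in wt/null 26 of 40, with a median of 0.10 and 1 gene at an unadjusted p below 0.05. Under anti-TNF 32 genotype estimates were then positive and 8 negative (median 0.14), and 10 interaction estimates were positive and 30 negative. The ligand Tnf itself had 42.1, 40.8 and 25.0 CPM in null/null anti-TNF and 30.6, 34.3 and 24.0 CPM in null/null isotype libraries, against 31.3, 105.0 and 24.1 CPM in wt/null anti-TNF and 22.8, 27.7 and 20.7 CPM in wt/null isotype libraries. Its highest value was again in wt/null anti-TNF replicate 2. The receptor gene Tnfrsf1a averaged 203.0 ± 6.65 CPM in null/null anti-TNF and 214.9 ± 19.3 CPM in null/null isotype, against 203.7 ± 15.3 CPM in wt/null anti-TNF and 198.6 ± 6.47 CPM in wt/null isotype libraries (SD, n = 3 each). Tnfrsf1b, the other TNF receptor gene, averaged 694 ± 25.0 CPM in null/null anti-TNF and 723 ± 88.8 CPM in null/null isotype, against 679 ± 79.2 CPM in wt/null anti-TNF and 681 ± 5.09 CPM in wt/null isotype libraries (SD, n = 3 each).

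The genes with the smallest unadjusted p in each list, given as values since none passed, included regulators close to the members. Nfkbid, which encodes a nuclear IkB protein, had a log2 fold change of 0.82 ± 0.32 (SE) for antibody in wt/null (adjusted p = 0.895), and 0.44 ± 0.30 without the 2 libraries that stand apart. Nfkbiz, which encodes another, had 0.66 ± 0.29 for antibody averaged over genotype (adjusted p = 0.66), and 0.24 ± 0.21 without them. Nfkbid was highest, at 165 CPM, in wt/null anti-TNF replicate 2, as was Nfkbiz at 318 CPM. Among the kinases and their partners, Map3k8, an NF-kB-linked kinase that p105 holds inactive, had 0.50 ± 0.21 and Tab3, an adaptor of the kinase TAK1, 0.27 ± 0.11 for antibody averaged over genotype (adjusted p = 0.66 for both). Without the 2 libraries Map3k8 had 0.16 ± 0.10 and Tab3 0.14 ± 0.10. Among adaptors, Traf5, a signal adaptor of TNF-family receptors, had 0.35 ± 0.12 for antibody in wt/null (adjusted p = 0.895), and Sharpin, of the linear ubiquitin ligase, had an interaction of -0.28 ± 0.12 (adjusted p = 1). Traf5 without the 2 libraries had 0.25 ± 0.13 and Sharpin -0.22 ± 0.13. Among brakes, the deubiquitinase gene Otud7b had -0.64 ± 0.23 for antibody in wt/null (adjusted p = 0.895), and Tnip2, an A20-binding protein, had 0.18 ± 0.08 for genotype averaged over antibody (adjusted p = 1). Otud7b without the 2 libraries had -0.46 ± 0.20 and Tnip2 0.13 ± 0.07. Among ligands and receptors, Tnfrsf13c, the BAFF receptor of B cells, had 2.13 ± 0.69 for antibody in wt/null (adjusted p = 0.895), at levels of only 0.71 to 1.51 CPM in wt/null anti-TNF against 0.14 to 0.32 CPM in wt/null isotype libraries. Ltb, which encodes lymphotoxin beta, had 1.097 ± 0.39 for antibody averaged over genotype (adjusted p = 0.66). Tnfrsf13c without the 2 libraries had 1.69 ± 0.62 and Ltb 0.32 ± 0.22.

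Among canonical targets, Il12b, a cytokine subunit gene, had 1.51 ± 0.48 and Cxcl1, a neutrophil chemokine gene, 1.31 ± 0.47 for antibody in wt/null (adjusted p = 0.895 for both). Without the 2 libraries that stand apart Il12b had 0.66 ± 0.29 and Cxcl1 0.71 ± 0.40. Il12b had 2.94, 10.6 and 3.26 CPM in wt/null anti-TNF against 1.95, 1.33 and 2.56 CPM in wt/null isotype libraries, the highest again in replicate 2 of the anti-TNF group. Of the 8 noncanonical targets tested, 5 genotype estimates were positive and 3 negative under isotype, and 4 and 4 under anti-TNF. Averaged over antibody 6 were positive and 2 negative. The noncanonical target genes Ccl22 and Ccl17, chemokines for CCR4-bearing T cells, had the smallest p of that list, and both for genotype. Ccl22 had 31.6, 29.5 and 42.4 CPM in null/null isotype against 23.4, 19.2 and 14.3 CPM in wt/null isotype libraries, groups that did not overlap, with a log2 fold change of 0.87 ± 0.20 (unadjusted p = 0.000904, adjusted p = 1), in groups that hold neither of the 2 libraries. Under anti-TNF it averaged 25.4 ± 2.04 CPM in null/null and 24.0 ± 5.04 CPM in wt/null (SD, n = 3 each), and the groups overlapped. Ccl17 had 1.42 ± 0.39 for genotype averaged over antibody (unadjusted p = 0.00344, adjusted p = 1), and 1.47 ± 0.35 without the 2 libraries. It averaged 3.68 ± 2.09 CPM in null/null anti-TNF and 3.50 ± 0.98 CPM in null/null isotype, against 1.31 ± 0.46 CPM in wt/null anti-TNF and 1.38 ± 0.83 CPM in wt/null isotype libraries (SD, n = 3 each).

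Levels of many members moved together between libraries, though some pairs had correlations near 0. Of the 45 pairs of members, all 45 had a positive Pearson correlation of log2 CPM over the 12 libraries (0.03 to 0.955), and 13 were above 0.7. Without the 2 libraries that stand apart 43 were positive and 14 were above 0.7. Pairs of other genes were not counted for comparison. The points are libraries that share scaling, group and, for 2 of them, the shift along the first component, so these values are descriptions. Nfkbia and Tnfaip3 were the closest pair, at 0.955 over 12 libraries, 0.899 without the 2 that stand apart and 0.949 after group means were removed. Rel and Tnfaip3 had 0.886, and 0.71 without those libraries. Rela and Relb had 0.602 over 12 libraries and 0.909 over the other 10. Nfkb2 and Bcl3 had 0.598 across libraries but 0.939 after group means were removed, and in 3 of the 4 groups both genes put the libraries in the same order, null/null anti-TNF being the exception. The library whose title starts with 46 was the highest in 4 groups for Bcl3 and in 3 for Nfkb2. How much of the 0.939 goes with the title number was not tested. Nfkb1 had correlations over the 10 libraries from -0.03 with Bcl3 to 0.44 with Nfkbib. After group means were removed over all 12, it had 0.851 with Relb, 0.783 with Tnfaip3 and 0.112 with Bcl3.

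**Figure D3:**
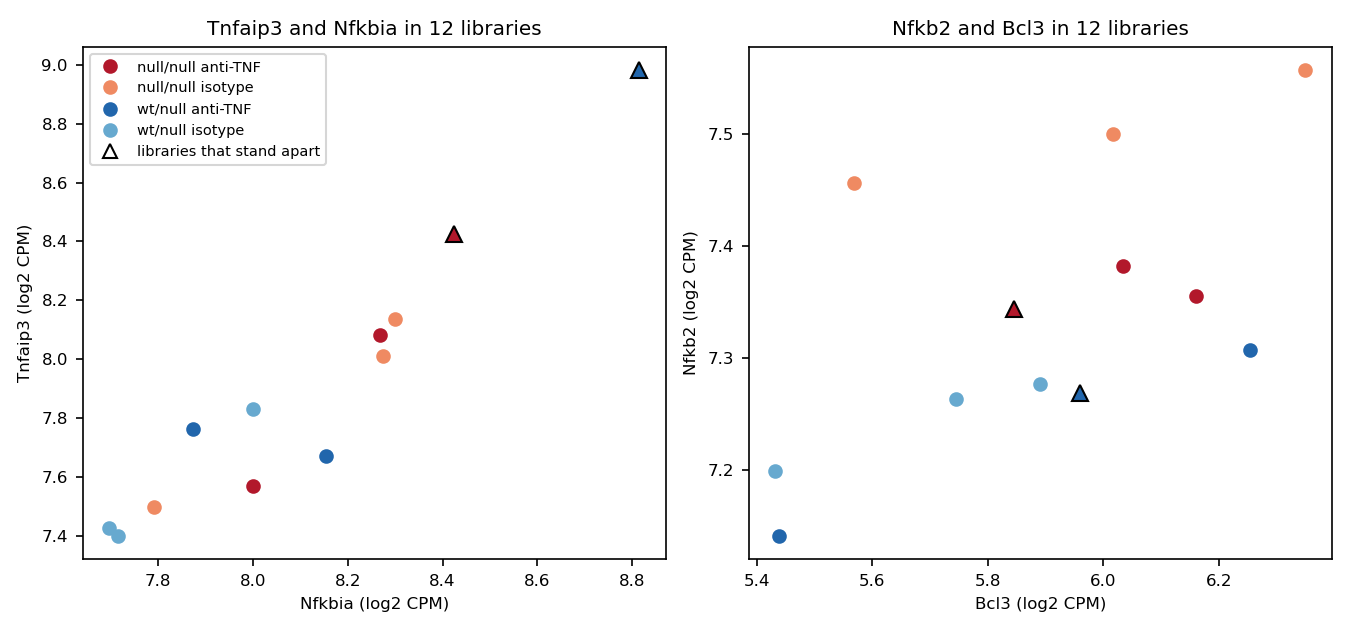
Log2 CPM of Tnfaip3 against Nfkbia (left) and of Nfkb2 against Bcl3 (right), 1 point per library, coloured by group, with black-edged triangles for the 2 libraries that stand apart. Tnfaip3 and Nfkbia rise along one line (r = 0.955), whereas for Nfkb2 and Bcl3 the null/null isotype libraries lie above the wt/null libraries at a like Bcl3 level (r = 0.598 over all, 0.939 within groups).

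**Figure D4:**
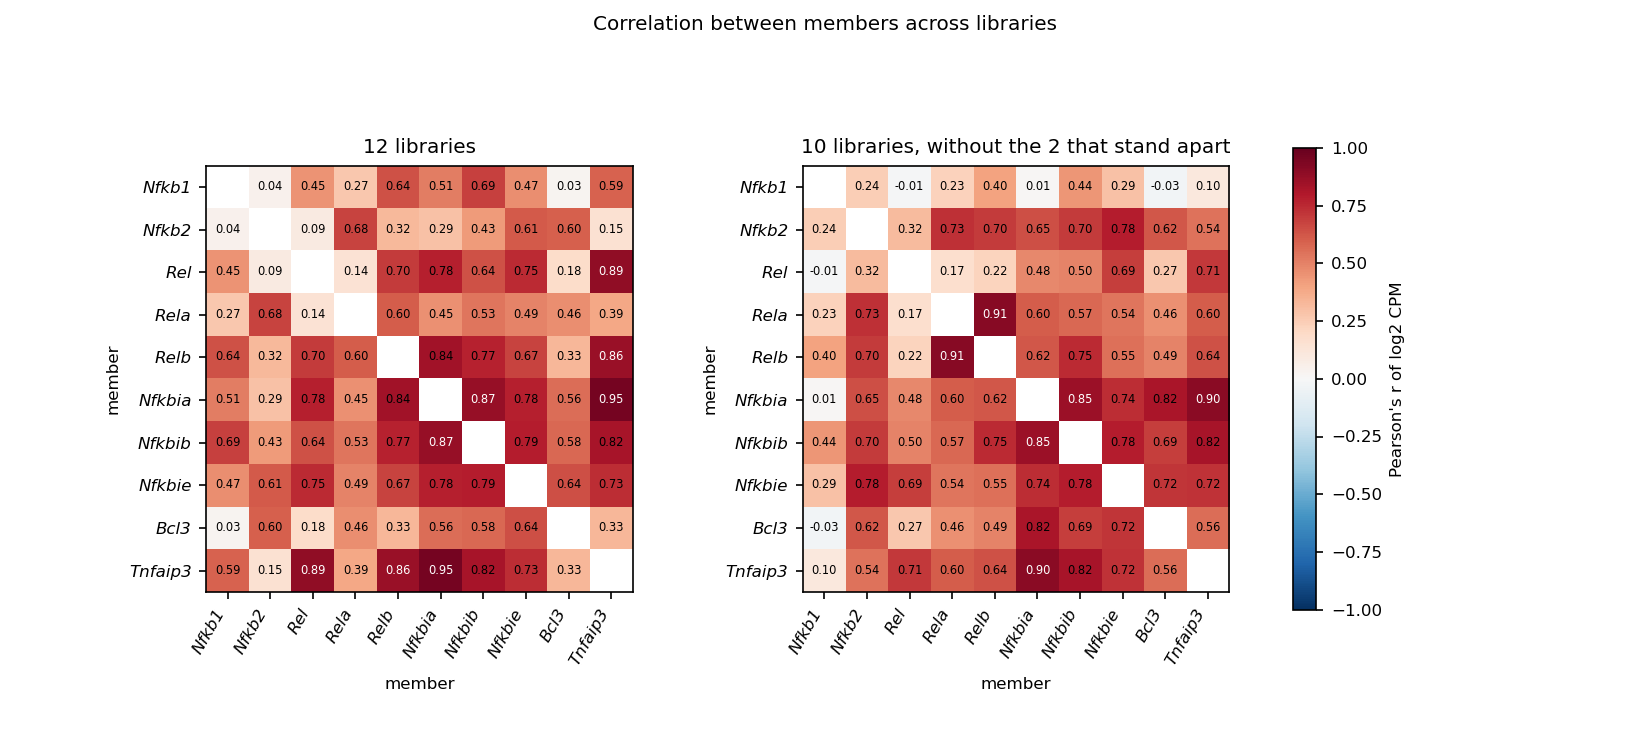
Pearson correlation of log2 CPM between members over 12 libraries (left) and over the 10 left without the 2 that stand apart (right), on a colour scale from -1 to 1. The inhibitors Nfkbia, Nfkbib, Nfkbie and Tnfaip3 have correlations of 0.72 or more with each other in both panels, and Nfkb1 is near 0 with Bcl3 in both panels.

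The loading of single members on the first principal component was uneven. Over 12 libraries the correlation of log2 CPM with that component was 0.844 for Tnfaip3, 0.815 for Rel, 0.768 for Relb and 0.764 for Nfkbia, and these are the 4 members whose 2 highest values came from the 2 libraries that stand apart. It was -0.171 for Nfkb2, 0.023 for Rela and 0.0858 for Bcl3. Over the other 10 libraries none of the members exceeded 0.383. The part of the marker differences given above in these levels was not tested.

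Each member was also set against 9952 genes outside the members whose log2 CPM averaged 2 or more. The 3 genes with the highest Pearson correlation over 12 libraries were taken. Genes of the pathway lists were among the candidates, and Birc3, Gadd45b, Il10 and Map3k14 below belong to those lists. Tnfaip3 was most like Csrnp1 (0.989), Birc3 (0.979) and Gadd45b (0.969), and Nfkbia was most like Birc3 (0.973), Csrnp1 (0.967) and Ier2 (0.964). Over the 10 libraries these values were 0.966, 0.937 and 0.902 for Tnfaip3 and 0.951, 0.926 and 0.918 for Nfkbia. Rel was most like Mxd1 (0.959), Ifrd1 (0.957) and Il10 (0.949), and Relb was most like Map3k14 (0.93), the kinase gene of the noncanonical branch, Mapk7 (0.93) and Lmbr1l (0.918). Nfkbie was most like Gpr132 (0.96), Ndel1 (0.953) and Cd14 (0.929), and Nfkbib was most like Cish (0.93), Rab20 (0.923) and Sqstm1 (0.922). Nfkb2 was most like Sh2b2 (0.934), Mef2d (0.908) and Adora2b (0.896), and Rela was most like Pvrl2 (0.948), Mier2 (0.893) and Zbtb12 (0.88). Bcl3 was most like Zer1 (0.916), Tnfrsf21 (0.909) and Cnnm4 (0.907), and Nfkb1 was most like Ptpn6 (0.897), Gtf2b (0.887) and Rbm17 (0.881). These are the highest values among 9952 candidates over 12 libraries and carry no test.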

How the data were processed

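The authors deposited raw counts per gene symbol, whole numbers that were not normalized. Per the submitters' processing notes bcl2fastq 2.20, STAR, Bowtie and the build mm10 were used, without their roles. Per the labels' protocols a NEBNext Ultra II stranded kit was used. For the counter, strand setting and annotation, the sources used here say nothing. Sample titles identified all 12 columns (0 unmatched). After filterByExpr and TMM scaling, a robust quasi-likelihood model with 1 mean per group was fitted to the 12 samples together (edgeR 4.0.16, limma 3.58.1 and DESeq2 1.42.0 in R 4.3.3), with Benjamini-Hochberg adjustment over 12981 genes and two-sided tests. The biological coefficient of variation was 0.179. Log2 CPM used a prior count of 2. The fit was also run on simulated counts, with changes placed in null/null isotype libraries only. That run held no libraries that stand apart and its outcome is not given here, so nothing is drawn from it. Lengths and positions came from GENCODE vM21 and promoters from RefSeq, both GRCm38, the build also called mm10. Libraries of the same group differed beyond counting noise in all 12 pairs, so none was taken as the same library sequenced again. That check cannot tell separate mice from separate libraries of 1 mouse. The members and lists were chosen with earlier results of these data known. All 10 members were named. Single-comparison estimates were given for members with an unadjusted p below 0.05, and for Nfkb2, Nfkbia and Tnfaip3 in other comparisons, chosen after their values were seen. A block for the title's number and letter was added after the data were seen. Each pathway list gave the 2 genes with the smallest p, and each member the 3 genes most like it. Tnf and its 2 receptors were added by choice.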

Additional observations from a re-analysis of the deposited data

How the results depend on the processing

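The 0 of 10 members called held in every comparison under every setting tried: DESeq2, limma voom with quality weights, RLE scaling, no filter beyond 1 count in all, a filter of 1 CPM in 3 libraries, the title number, or its number and letter (added after the data were seen), as a block, the libraries titled 40, the groups compared alone, without the 2 libraries that stand apart, and without each library in turn. All 7 other pathway lists and the subunits and inhibitors counted separately likewise kept 0 calls. In DESeq2 some members and list genes had no adjusted p for antibody averaged over genotype and could not be called there. Of 850 member estimates over 40 results, 31 reversed in sign, and the cause was not tested. Over all genes, DESeq2 called 2 for genotype under isotype, 2 under anti-TNF, 4 averaged over antibody and 14 for antibody averaged over genotype. In the libraries titled 40 the counts were 0 under isotype, 0 under anti-TNF and 0 for null/null anti-TNF against wt/null isotype, where fewer libraries were fitted, and 1 for antibody averaged over genotype. With the groups compared alone they were 0 for genotype under anti-TNF, 0 for null/null anti-TNF against wt/null isotype and 1 for antibody in null/null.

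For antibody averaged over genotype, limma voom gave -0.027 for Relb and -0.043 for Nfkbib, and the block for number and letter -0.0066 for Nfkbib. Without the 2 libraries that stand apart it was -0.079 for Relb, -0.065 for Nfkbib and -0.041 for Nfkbie, and in the libraries titled 40 it was 0.0094 for Nfkb1 and 0.0046 for Rela. For antibody in null/null limma voom gave -0.037 for Nfkbia. The interaction was 0.0054 for Bcl3 in the libraries titled 40 and 0.089 for Rel without the 2 libraries, where genotype under anti-TNF was 0.13 for Tnfaip3. Leaving out 1 library at a time, the antibody average ranged from -0.015 to 0.16 for Relb, from -0.061 to 0.14 for Nfkbib, from -0.0014 to 0.22 for Nfkbie and from -0.042 to 0.017 for Rela. The interaction ranged from -0.36 to 0.33 for Rel, from -0.28 to 0.079 for Relb and from -0.77 to 0.012 for Tnfaip3, with each upper end reached without wt/null anti-TNF replicate 2. Leaving out that library also gave the lowest antibody average of Relb, Nfkbib and Nfkbie. The genotype average of Tnfaip3 ranged from -0.046 to 0.34, below 0 without null/null anti-TNF replicate 1 or without wt/null anti-TNF replicate 1 or 3, and its genotype estimate under anti-TNF from -0.43 to 0.35, above 0 without wt/null anti-TNF replicate 2. The antibody estimate of Nfkb2 in wt/null ranged from -0.041 to 0.041 (0.0039 with the block for number and letter), and that of Nfkbia in null/null from -0.040 to 0.21, below 0 without null/null isotype replicate 1. Replicate numbers only name the samples and pair nothing. Titles that share number and letter gave 6 pairs of null/null and wt/null libraries under the same antibody. The labels give these no meaning, and the correlation of deviations from group means across genes was 0.483 to 0.631 in the 3 anti-TNF pairs and -0.00382, 0.0649 and 0.124 in the 3 isotype pairs, so the titles were not taken as pairing. Nfkb2 was higher in null/null in 6 of 6 pairs. Any pairing would give this count, since all 6 null/null libraries lay above all 6 wt/null libraries, so it adds nothing to that separation. Rel and Nfkbie were higher in 5 pairs, Nfkbia, Nfkbib and Tnfaip3 in 4, Rela, Relb and Bcl3 in 3, and Nfkb1 in 1. With this block the genotype average of Nfkb2 was 0.19 (adjusted p = 1). With the title number as a block, the genotype average of Nfkb2 was 0.19 and no member was called. Each member had at least 435 counts in every library, and the number of libraries, 3 a group, limits the precision.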
